A study of Homo sapiens with 12 samples.

Results

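In U2OS cells of the SOX2 set, 25488 regions had an accessibility entry in the wild-type list and no entry with either SOX2 or the SOX2-FOXA2 CTD fusion. They were 23.6% of the 108216 regions with a wild-type entry, and belonged to a union of 399183 regions over 9 deposited ATAC-seq lists. Members were chosen by merging the peaks or entries of all 9 lists on chromosomes 1 to 22 and X, with an overlap of at least 1 bp, and keeping the regions with an entry in the wild-type list and none in either construct list. The values of the SOX2 set therefore chose the members and are given as a description, without a test. Regions with an entry in all 3 lists of the SOX2 set, 67527 in number, are called kept regions and serve as the comparison.

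U2OS is a human osteosarcoma cell line of mesenchymal character, and ATAC-seq reads open chromatin by letting the Tn5 transposase insert adapters into it. The 12 samples form 6 groups of 2. The FOXA2 set comprised wild-type cells, cells with Tet-on full-length FOXA2 and cells with Tet-on FOXA2dCTD, a form that lacks the C-terminal domain (CTD). The SOX2 set comprised wild-type cells whose label names the SOX2 cell line, cells with Tet-on full-length SOX2 and cells with Tet-on SOX2FOXA2CTD, in which the FOXA2 CTD is joined to SOX2. The factors carried a Flag tag, were driven by a doxycycline-inducible promoter, and doxycycline was given at 500 ng/ml over 4 days. The wild types carry no genotype or treatment entry but share the general text on doxycycline, so whether they received it is not known. The labels also do not say whether the wild type of the SOX2 set was the parental line or the uninduced SOX2 line, nor whether each line was 1 clone. The FOXA2 set had 1 list per sample, while the SOX2 set had 1 list per group in the layout that IDR (irreproducible discovery rate) writes for a pair of inputs, so the loss itself has no replicate.

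SOX2 and FOXA2 are pioneer transcription factors, which can bind sites in closed chromatin and open it. When such a factor is expressed outside its usual tissue, accessible sites of the host cell can also close, as described for somatic enhancers early in reprogramming. In mesenchymal cells many distal accessible sites are enhancers bound by AP-1, TEAD and RUNX factors, whereas promoters rich in CpG are bound by SP/KLF, ETS and NRF1 factors and are open in most cell types. The question that a comparison with the FOXA2 set can address is whether regions lost with both SOX2 constructs were also weak or absent in independent U2OS libraries.

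No sequence of the regions themselves was used, because no genome was given, so the members are shown through the RefSeq promoters they overlap (GRCh38.p14, 250 bases before the start site). Members overlapped 510 of these promoters, 68 of them with a wild-type entry that passed the IDR limit of 0.05. The LIMS1, ANKRD22 and SBSN promoters are shown because they match TGANTCA, the pattern searched for AP-1, in which N is any base. Matches are in capitals, and these promoters were chosen after their values were seen. The LIMS1 match is TGATTCA, while those in ANKRD22 and SBSN are TGACTCA or TGAGTCA. The PTPN22 and CST5 promoters are shown as examples from the 8 strongest members at start sites. In these, capitals mark any match to the 11 motifs searched, which are TEAD and RUNX for PTPN22 and SP/KLF for CST5. Promoters in the TSPAN4, LFNG and C20orf141 members, also among these 8 and with TSPAN4 and LFNG the strongest, are not shown. LFNG and a TSPAN4 promoter had 0 matches. The other TSPAN4 promoter had SP/KLF and FOXA matches, and those of C20orf141 had CTCF and SOX matches.
LIMS1 promoter, chr2:108570455-108570704, plus strand: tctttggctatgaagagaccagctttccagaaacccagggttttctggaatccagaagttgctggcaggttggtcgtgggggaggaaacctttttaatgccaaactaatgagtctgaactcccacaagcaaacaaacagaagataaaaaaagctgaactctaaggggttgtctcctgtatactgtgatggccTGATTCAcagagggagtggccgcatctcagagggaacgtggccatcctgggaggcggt
ANKRD22 promoter, chr10:88851845-88852094, minus strand: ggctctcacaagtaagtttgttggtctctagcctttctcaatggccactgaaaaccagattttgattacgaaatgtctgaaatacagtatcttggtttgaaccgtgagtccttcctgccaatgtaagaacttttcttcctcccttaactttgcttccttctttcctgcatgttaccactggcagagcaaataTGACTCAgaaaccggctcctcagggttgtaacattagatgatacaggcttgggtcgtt
SBSN promoter, chr19:35528312-35528561, minus strand: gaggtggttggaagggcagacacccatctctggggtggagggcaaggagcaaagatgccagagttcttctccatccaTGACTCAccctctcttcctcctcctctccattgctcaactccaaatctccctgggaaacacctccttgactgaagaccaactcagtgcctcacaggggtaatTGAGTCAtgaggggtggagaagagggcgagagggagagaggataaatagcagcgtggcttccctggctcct
PTPN22 promoter, chr1:113871713-113871962, minus strand: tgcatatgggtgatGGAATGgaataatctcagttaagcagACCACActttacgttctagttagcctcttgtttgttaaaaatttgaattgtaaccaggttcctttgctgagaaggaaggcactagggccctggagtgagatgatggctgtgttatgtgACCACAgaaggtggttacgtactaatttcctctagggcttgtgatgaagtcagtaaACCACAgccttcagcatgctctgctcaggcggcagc
CST5 promoter, chr20:23879749-23879998, minus strand: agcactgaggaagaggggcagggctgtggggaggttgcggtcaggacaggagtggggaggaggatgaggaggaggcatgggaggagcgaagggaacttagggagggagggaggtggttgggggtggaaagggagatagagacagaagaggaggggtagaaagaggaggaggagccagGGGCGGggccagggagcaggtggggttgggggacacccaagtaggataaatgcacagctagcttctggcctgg

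LIMS1 encodes an adaptor of focal adhesions, SBSN the epidermal protein suprabasin, PTPN22 a phosphatase of lymphocytes and CST5 the protease inhibitor cystatin D. The LIMS1 member had −log10 p values of 11.4 and 13.3 in the inputs of the wild-type list and was called in 0 of the 6 FOXA2-set lists. The ANKRD22 member had 8.13 and 9.08, also with 0 lists, and the SBSN member had 7.27 and 7.69, again with 0 lists. A further member with an AP-1 match in its promoter, at RNF43, a ubiquitin ligase gene, had 7.45 and 8.80 and was called in 1 list. PTPN22 had 15.8 and 17.6 and CST5 17.3 and 12.9, each called in 1 FOXA2-set list, a CTD deletion library in both cases. GC content was 49.2% in the LIMS1 sequence, 43.2% in ANKRD22, 55.2% in SBSN, 45.6% in PTPN22 and 62.4% in CST5.

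Members were mostly weak entries of the wild-type list. Their median −log10 p, which in this list is the lower of both inputs, was 3.48 (interquartile range 3.05 to 4.997, highest 30.4), beside 8.43 for kept regions. Of the members, 3151 (12.4%) passed the IDR limit, beside 40643 kept regions (60.2%). These 3151 were 6.6% of the 47733 passing regions. Both inputs reached a −log10 p of 10 in 895 members. Across members the inputs had a Spearman correlation of 0.476, beside 0.766 across kept regions, and points of one list share their 2 libraries. Members were also narrower, with a median wild-type entry of 370 bp against 720 bp, and covered 11.5 Mb in all.

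Ranking all wild-type entries by −log10 p into 5 strength classes at its quintiles, with ties kept together, placed most members at the weak end. The member share was 49.5% in class 1 (−log10 p 1.65 to 3.35), 34.4% in class 2, 21.2% in class 3, 8.71% in class 4 and 1.38% in class 5 (13.5 to 136.8). The 5 classes held 12353, 6309, 4673, 1856 and 297 members. The wild-type list was also the shortest of the set, with 110813 entries against 147763 with SOX2 and 177650 with the fusion.

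**Figure D1:**
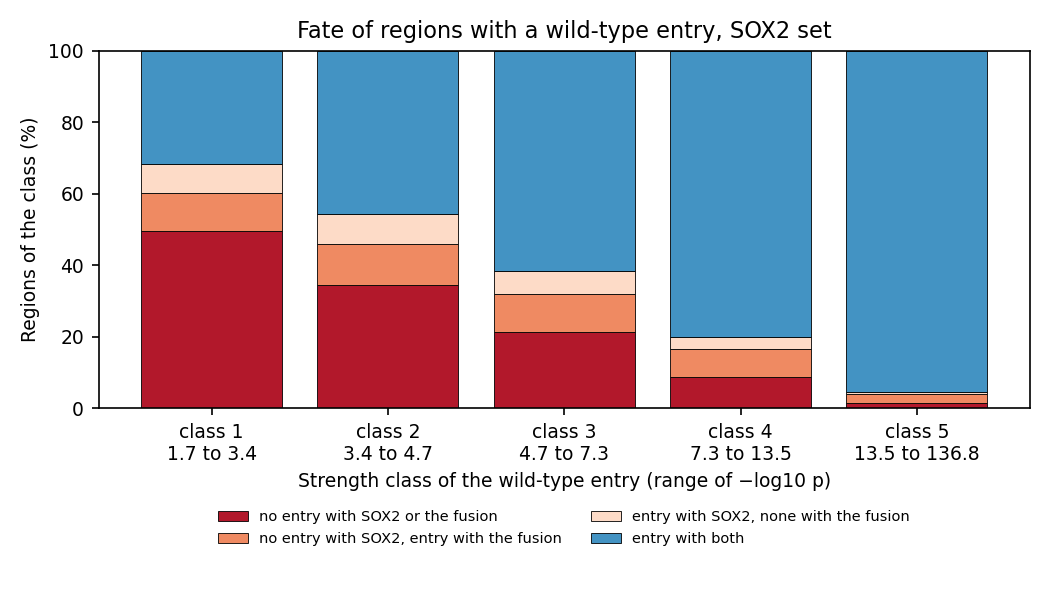
Stacked share (%) of regions with a wild-type entry of the SOX2 set by strength class of that entry, split by whether SOX2 or the fusion also had an entry. The share without an entry in both construct lists goes from 49.5% in class 1 to 1.38% in class 5.

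The edge of the rule was not sharp. In 5760 regions the wild-type entry passed IDR while the entries of both constructs failed it. Their median −log10 p was 9.64 in wild type, 4.36 with SOX2 and 3.88 with the fusion, and they are not members because an entry was still listed. A further 9319 regions lost the entry with SOX2 alone and 5882 with the fusion alone. Of the members, 18.5% had a construct entry within 1 kb and 81.1% within 10 kb.

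The strongest members were distal or intragenic, and their calls in the FOXA2 set varied. The member with the highest −log10 p, chr12:38183298-38184224 (31.3 and 30.4 in the inputs), lay outside genes, 132463 bp from ALG10B, a glycosyltransferase gene of N-glycan synthesis. It was called in 4 FOXA2-set lists, with fold enrichments of 4.76 in wild type replicate 1, 3.27 in full-length replicate 1, and 3.08 and 4.09 in the CTD deletion libraries. The member in FGGY, a carbohydrate kinase gene, at chr1:59678623-59679322 (30.1 and 32.2) was called in both FOXA2-set wild types (folds 4.06 and 4.99) and in 1 construct library (3.90). The one 15382 bp from STEAP4, a metalloreductase gene, at chr7:88254529-88255510 (31.9 and 28.8) was called in 0 of 6. The next members in order lay in NEK10, near NABP1, in TBC1D15, in PCDH15 and in ZNF385D, with −log10 p from 25.4 to 28.0 and calls in 0 to 4 lists. Of these 8, 6 were called in FOXA2-set wild type replicate 1 and 2 in replicate 2, while full-length replicate 2 called 0. The nearest entry with SOX2 or the fusion lay 215 bp from the NABP1 member and 430 bp from the FGGY member. For the others of the 8 it lay 3008 to 26338 bp away. Whether overlapped gene parts were exons was not analysed here.

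Of the members passing IDR, 46 lay within 1 kb of a protein-coding start site. Besides PTPN22 and CST5, shown above, the 8 strongest of these included TSPAN4, a tetraspanin, at chr11:843603-845065 (inputs 20.2 and 20.2, called in 3 FOXA2-set lists) and LFNG, a glycosyltransferase that modifies Notch, at chr7:2516973-2518360 (30.9 and 19.2, called in 2). MXRA8, C20orf141 and KRT36, the last a hair keratin, had −log10 p of 16.5, 13.9 and 12.8 and 0 calls, and HK1, a hexokinase, had 15.3 and 2 calls. The nearest entry with SOX2 or the fusion lay 485 bp from the TSPAN4 member and 742 bp from the CST5 member. For the others of these 8 it lay 1093 to 7360 bp away.

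The FOXA2-set lists entered the choice of members only through the merging of all 9 lists, by which a FOXA2-set peak can join a wild-type entry to a construct entry. Merging the 3 SOX2-set lists alone gave 25810 members in place of 25488, with a mean share called in the FOXA2-set libraries of 6.16% in place of 6.08%. In the FOXA2-set lists, 6024 members (23.6%) were called in at least 1 of the 6 lists, against 54374 kept regions (80.5%) and 62.3% of all regions with a wild-type entry. Of the members passing IDR, 1177 (37.4%) were called at least once, against 89.4% of passing kept regions and 83.3% of all passing regions. A total of 19464 members (76.4%) were called in no list, against 37.7% of all regions with a wild-type entry, and 19 (0.0745%) in all 6, against 7.85%.

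Library by library, the share of members called was 1.23% and 1.83% in the wild types, where 16.8% and 15.9% of all regions with a wild-type entry were called. With full-length FOXA2 it was 10.2% and 2.70%, against 41.2% and 26.1% of all. In the CTD deletion libraries it was 6.50% and 14.1%, against 31.6% and 48.4% of all. The list lengths differ in the same order within each group: 19862 and 25088 peaks in the wild types, 161136 and 57946 with full-length FOXA2, 78820 and 146854 with the CTD deletion. Their part in the shares was tested only through the alternatives below.

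A smaller share of members than of kept regions of the same strength class was called in each of the 6 libraries. The difference, averaged over the 5 classes, was −14.0 and −14.8 points in the wild types, −39.8 and −30.9 with full-length FOXA2, and −29.0 and −39.6 with the CTD deletion. Its mean was −28.0 points (SD 11.4, n = 6 libraries), lower in 6 of 6. The exact two-sided sign-flip permutation p was 0.03125, the smallest that 6 libraries can give. Members were chosen for no entry in either construct list of the same cell line, and kept regions for an entry in both. Fewer calls of members in further U2OS lists can follow from that choice alone, so this p decides nothing about the members. With equal numbers of peaks per list the mean difference was −12.9 points. With peaks that had to cover the centre of the wild-type entry, whatever the width of the region, it was −20.3 points. The lists without mitochondrial peaks, wild type replicate 2 and full-length replicate 2, gave −14.8 and −30.9, and the 4 lists with them gave values from −39.8 to −14.0, so the direction was the same within both kinds of list.

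**Figure D2:**
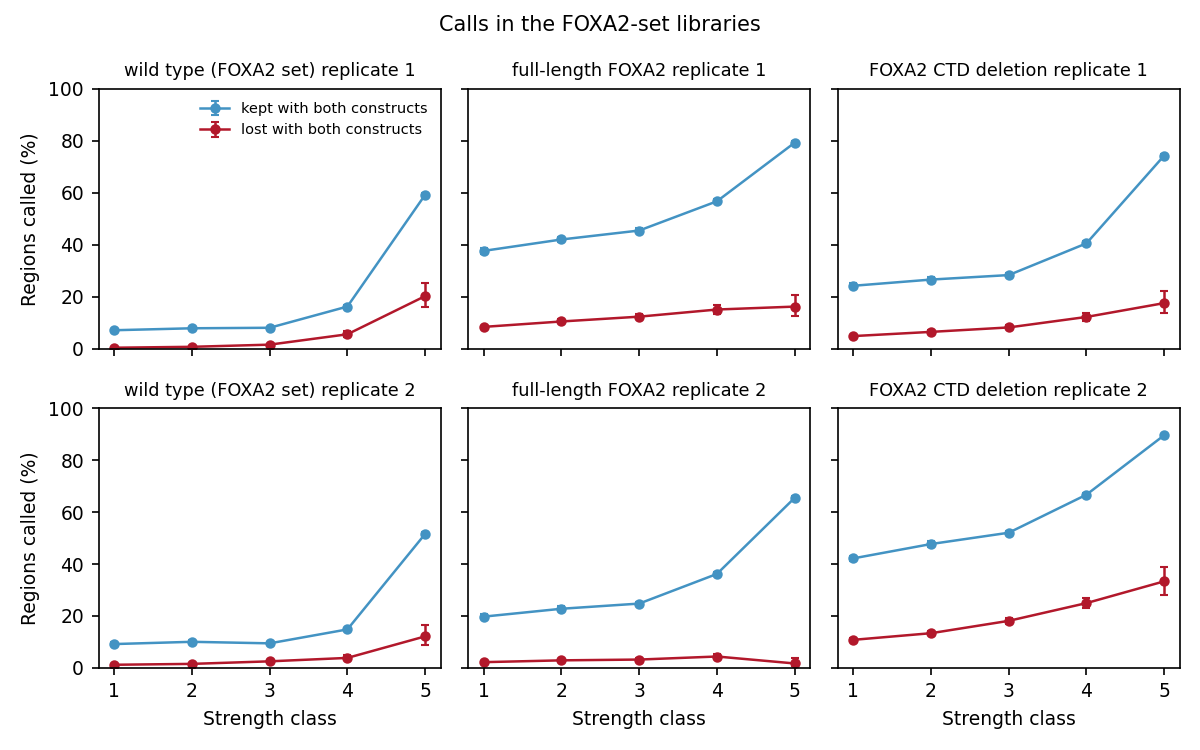
Share of regions (%) called in each FOXA2-set library against strength class of the SOX2-set wild-type entry, for lost and kept regions; bars are Wilson 95% intervals, which cover counting error only. Lost regions lie below kept regions in each class and library, and in class 5 they reach 33.3% in CTD deletion replicate 2 against 89.6% of kept regions.

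The 297 members of the top class, where the entry was strong in both inputs, were called in 20.2% and 12.1% of cases in the FOXA2-set wild types, against 57.7% and 49.9% of all top-class regions. With full-length FOXA2 they were called in 16.2% and 1.68%, against 76.8% and 62.9%. With the CTD deletion they were called in 17.5% and 33.3%, against 72.2% and 87.6%. The lists with full-length FOXA2 held more peaks than the wild-type lists, yet called fewer of these members within both kinds of list, with differences of −10.4 points without mitochondrial peaks and −4.04 points with them. Kept regions of the class were called more often with full-length FOXA2 in the same pairs, by 13.9 and 20.1 points. That direction in kept regions depended on the peaks used. At a common −log10 p of at least 5.43 their difference was 13.8 points without mitochondrial peaks and −4.04 with them. At equal numbers of peaks it was −8.17 and −24.1. Members differed by −10.4 and −13.5 at the common threshold and by −8.42 and −18.9 at equal numbers. Strength was not matched within the top class, which reached a −log10 p of 136.8, while members reached 30.4 at most. When only passing regions were split into 5 classes, the top one held 20 members and 9424 kept regions. The part of strength within the class in these shares was not tested.

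Over all members, the share called was 6.82 points higher in the 4 construct libraries (8.35% ± 4.87, SD) than in the 2 wild types (1.53% ± 0.424, SD), with an exact two-sided permutation p of 0.133, the smallest that 2 against 4 can give. Kept regions were also called more often in the constructs, by 27.1 points (51.7% against 24.6%), so the rise was not particular to members. The direction depended on the peaks used. At equal numbers of peaks, 19862 per list, the difference was −0.409 points in members and −5.11 in kept regions. For top-class members it was 1.01 points with all peaks (exact permutation p = 0.933). It was −9.93 at a common −log10 p of at least 5.43 and −13.0 at equal numbers, each with an exact permutation p of 0.133. At the common threshold the top-class members were called in 14.3% (wild types), 2.36% (full length) and 6.40% (CTD deletion) on average. Kept regions stood at 52.8% in the wild types and 57.7% in the constructs, 4.86 points higher (exact permutation p = 0.8). For kept regions the construct libraries lay on both sides of the wild types, from 50.1% to 65.4%. At equal numbers of peaks the difference was −12.9 points in kept regions of the class as well, about as large in points as in members. The base shares were unlike. Members stood at 14.6% in the wild types and 1.68% in the constructs, and kept regions at 51.5% and 38.7%. Whether the difference is particular to members was not tested.

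**Figure D3:**
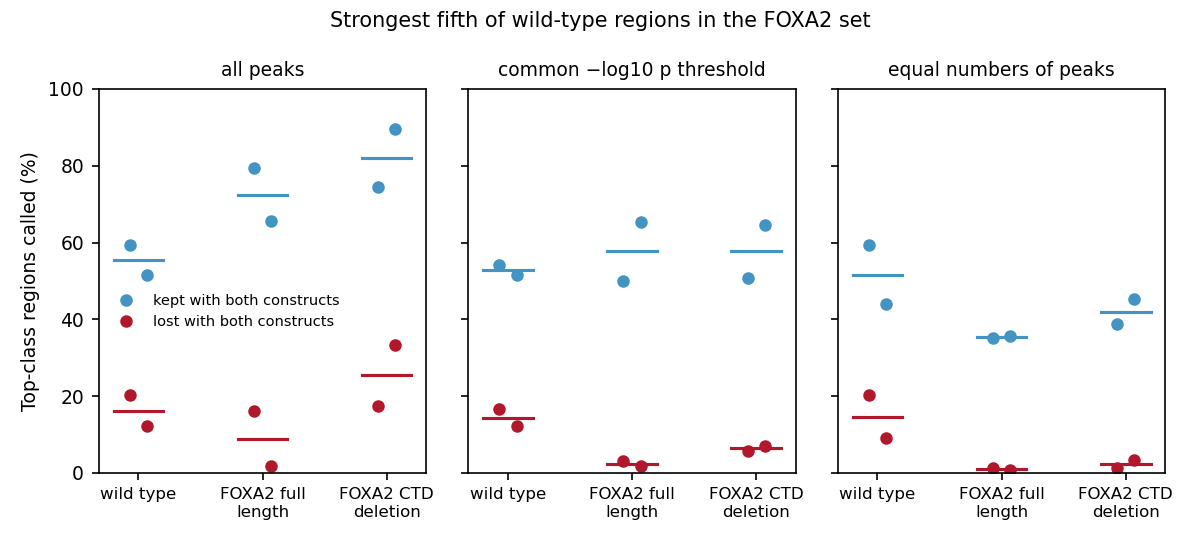
Share (%) of top-class regions called in each FOXA2-set library (points) with group means (lines), for all peaks, for a common −log10 p threshold and for equal numbers of peaks. With the common threshold the 2 wild types stand above the 4 construct libraries for lost regions (mean 14.3% against 4.38%). Kept regions average 52.8% and 57.7%, with construct libraries on both sides of the wild types (54.1% and 51.6%). Replicate 1 of full length (50.1%) and of the CTD deletion (50.8%) lies below them, and replicate 2 of each (65.4% and 64.5%) above.

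Few members were called in both FOXA2-set wild types, and a larger share of these than of kept regions had no call with the FOXA2 constructs. In all, 49 members (0.192%) were called in both FOXA2-set wild types, against 9.57% of all regions with a wild-type entry, and 16 of the 49 (32.7%, Wilson 95% interval 21.2 to 46.6) were called in neither full-length list. Among kept regions this held for 347 of 10183 (3.41%), and among all union regions for 3.76%. For the CTD deletion it was 9 of 49 (18.4%, 9.98 to 31.4), against 93 kept regions (0.913%) and 1.36% of union regions. The size of these contrasts depended on the peaks used. At the common −log10 p threshold, 15 of 38 members (39.5%) were called in neither list of the full-length form and as many in neither list of the CTD deletion, against 8.17% and 7.63% of kept regions. At equal numbers of peaks it was 23 of 40 members (57.5%) for each construct, against 22.9% and 17.3% of kept regions. Members were weaker than kept regions in the wild-type lists as well, with a median mean percentile of 41.1 against 61.1. Among regions in the lowest of 3 equal parts by that rank, 13 of 32 members (40.6%) and 5.80% of kept regions were called in neither full-length list. In the highest part it was 1 of 12 and 0.823%, and 12 members are too few to compare. The opposite pattern held for 269 members (1.06%), which were called in no wild type and both full-length lists, against 7.61% of regions with a wild-type entry, and for 659 (2.59%) with the CTD deletion, against 10%.

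A group of 8 members was called in both FOXA2-set wild types and in the SOX2-set wild type, with no call with any construct of either set. Of the 49 members called in both FOXA2-set wild types these are 8, while 49 of 10822 union regions (0.453%) and 28 of 10183 kept regions (0.275%) called in both had no call with a FOXA2 construct. They were chosen after their values were seen, and 7 of the 8 passed IDR. The strongest, 5877 bp from HECW1, a ubiquitin ligase gene, at chr7:43571878-43573281, had −log10 p of 22.2 and 24.7 in the inputs and folds of 4.21 and 5.61 in the FOXA2-set wild types. The next lay 40898 bp from RASSF6 at chr4:73661529-73662179 (21.4 and 26.1, folds 4.21 and 4.99) and 18667 bp from SLC4A7, a sodium bicarbonate cotransporter gene, at chr3:27503051-27504202 (26.7 and 20.6, folds 6.20 and 5.61). The other members lay near HORMAD2, TBKBP1 and JCAD and in KCNMA1, a potassium channel gene, and AGTPBP1, a carboxypeptidase gene acting on tubulin. The nearest entry with SOX2 or the fusion was 71 bp away for the KCNMA1 member and 3620 bp for the RASSF6 member, the nearest and the farthest of the 8. It was also within 1 kb for HECW1 (319 bp), TBKBP1 (421 bp), AGTPBP1 (544 bp) and JCAD (870 bp). Of all members, 18.5% had such an entry within 1 kb. For HORMAD2 and SLC4A7 it was 1365 and 3018 bp away.

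At the other end, 7 of the 3151 members passing IDR (0.222%) were called in all 6 FOXA2-set lists, against 15.8% of all passing regions. The strongest lay 69260 bp from EPCAM at chr2:47299383-47300051 (inputs 15.8 and 15.6), with folds of 5.56 and 4.05 in the wild types, 2.76 and 5.11 with full-length FOXA2 and 4.20 and 3.19 with the CTD deletion. The member in HDAC9, a histone deacetylase gene, at chr7:18958304-18959268 had higher folds with 5.45 and 11.2, 7.39 and 13.6, and 7.19 and 6.97 in the same order. Others lay in PKD2, the polycystin-2 channel gene, and KLRD1, a natural killer receptor gene, and far from RAB28 and MED30. Members with strong entries and calls in 0 of 6 lists included those near STEAP4, in PCDH15, near ENPEP (−log10 p 24.05), near TNFRSF11B, which encodes the bone protein osteoprotegerin (22.3), in ASTN2 (22.1) and in ETS1, a transcription factor gene (21.7).

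Members lay away from start sites at every strength. Of the 23965 members on chromosomes with start sites in the table used, 562 (2.35%, Wilson 2.16 to 2.54) lay within 1 kb of a protein-coding start site, against 16.7% of kept regions. In the top class it was 6 of 277 (2.17%, 0.996 to 4.64) against 33.4%. The median distance was 75893 bp for members and 46895 bp for kept regions. Members lay within a protein-coding gene in 43.2% of cases (kept 51.3%), within a lncRNA gene only in 14.1% and outside genes in 42.7% (kept 36.2%). Kept regions were also wider (median 942 bp against 400 bp). The part of width, and of strength within a class, in these shares was not tested. By chromosome, the member share of wild-type regions ranged from 17.7% on chromosome 19 to 26.995% on chromosome 7. The longest run of neighbouring wild-type regions that were all members held 9, at chr7:4174631-4226902.

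**Figure D4:**
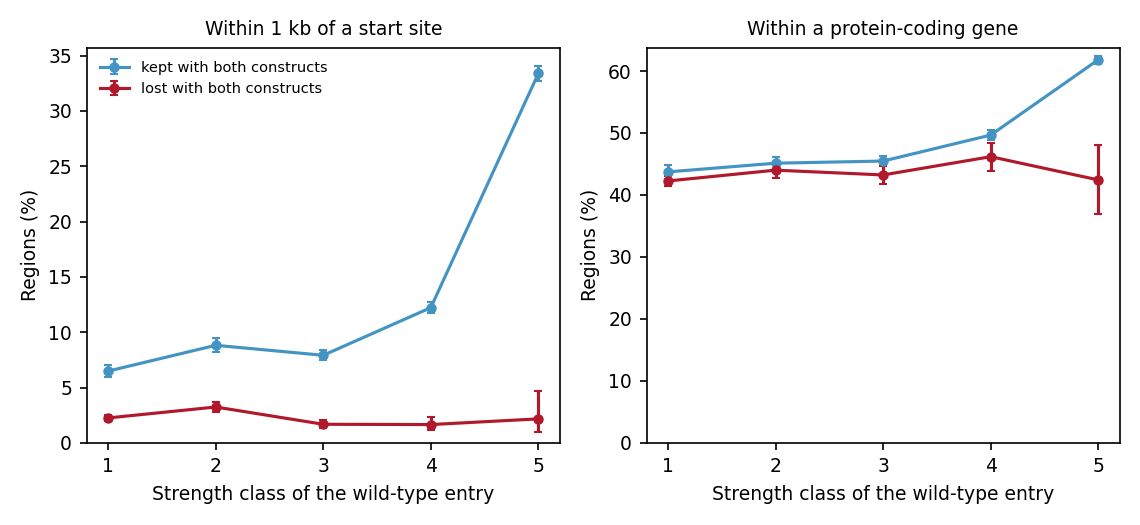
Share (%) of lost and kept regions within 1 kb of a start site (left) and within a protein-coding gene (right) by strength class, with Wilson 95% intervals. The start-site share of lost regions stays between 1.65% and 3.24% over the classes, whereas that of kept regions goes from 6.48% to 33.4%.

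Promoters overlapped by members were poor in CpG. Their median GC content was 53.2% with 5 CpG, and 48.2% with 3 CpG where the member passed IDR, against 65.6% and 21 CpG for promoters in kept regions and 58.4% and 11 over all 34961 promoters. The promoters also differed in gene type. Protein-coding genes held 49.6% of member promoters and 42.6% where the member passed IDR, against 79.1% of kept and 63.3% of all promoters. AP-1 matches (TGANTCA, with any base at N) stood in 82 of 510 member promoters (16.1%, Wilson 13.1 to 19.5), against 5.24% of kept and 6.54% of all. They were not split by the base at N. RUNX matches (TGTGGT) were found in 18.4%, 7.84% and 10.98%, TEAD (GGAATG) in 16.7%, 9.21% and 11.9%, and NFI (TTGGCA) in 15.3%, 7.81% and 10.8%. SOX matches (CATTGT) stood in 12.9%, 5.04% and 9.25% and FOXA matches (TGTTTAC) in 3.92%, 1.93% and 2.98%, for which the interval of members, 2.55 to 5.98, holds the share of all promoters. Where the member passed IDR, FOXA matches stood in 6 of 68 promoters (8.82%, 4.11 to 17.9), an interval above the share of all promoters. This was not particular to FOXA. In passing members the intervals of AP-1 (10.4 to 28.4), TEAD (13.8 to 33.3), SOX (10.4 to 28.4) and NFI (11.5 to 30.0) also lay above that motif's share of all promoters. Those of RUNX (10.4 to 28.4), CRE, ETS and NRF1 held it, and those of SP/KLF (10.4 to 28.4) and CTCF (1.51 to 12.2) lay below. These intervals cover counting error only and are no test of enrichment. Promoters of the same gene are not independent, with 510 promoters from 481 genes and 68 from 64, and 11 motifs were compared. Matches of promoter factors stood in a smaller share of member promoters. SP/KLF (GGGCGG) stood in 30.8% of member, 66.6% of kept and 42.7% of all promoters, ETS (CCGGAAGT) in 0.588%, 6.41% and 3.43%, and NRF1 (GCATGCGC) in 0.784%, 4.64% and 2.64%. CRE (TGACGTCA) stood in 0.588%, 2.75% and 1.65%, and CTCF (AGGGGGC) in 10.98%, 18.8% and 13.4%. Both strands were searched and no motif was masked where it overlapped another. GC content moves with these shares, and its part in them was not tested. The part of gene type in the CpG, GC and motif values was not tested either.

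**Figure D5:**
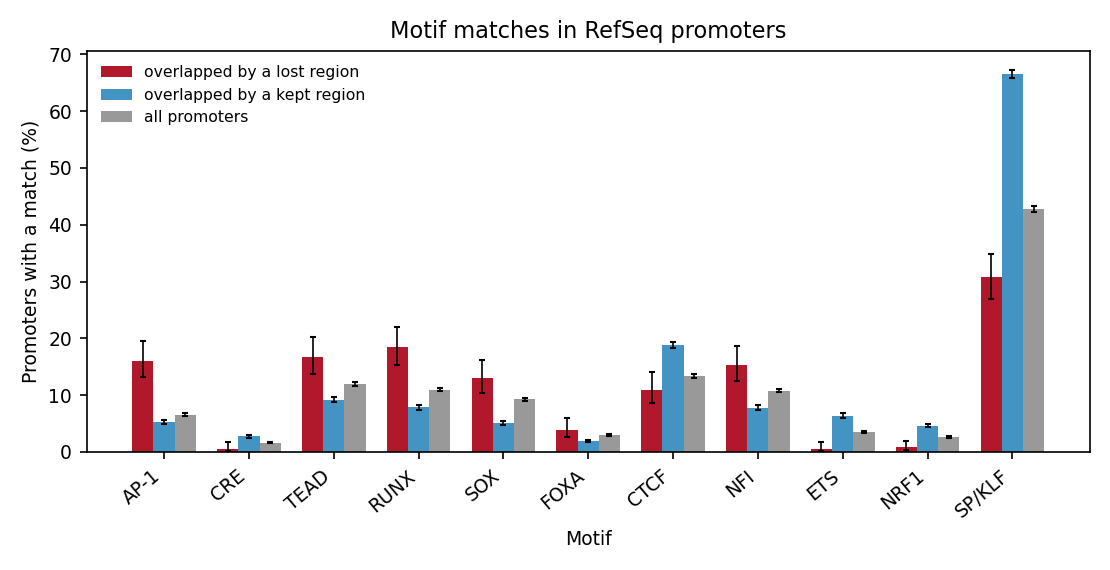
Share (%) of RefSeq promoters with at least 1 match to each motif, for promoters overlapped by a lost region (n = 510), by a kept region (n = 16936) and all promoters (n = 34961). Wilson 95% intervals cover counting error only. AP-1, TEAD, RUNX, SOX and NFI bars of lost regions stand above the other bars, and SP/KLF, ETS and NRF1 bars below them.

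Of 135 listed genes in 8 lists, 73 (54.1%) had a member within 10 kb of the gene, against 39.8% of all protein-coding genes. A member that passed IDR was found for 16 (11.9%), against 8.06%. Longer genes have more room for a member, gene length was not matched, and kept regions were not counted at these genes. Whether the difference is particular to members was not tested. Start sites were at hand for only 100 of the 135, too few for a check of the lists, so the next counts are void as a comparison and stand as values. Of the 100, 38 had a member within 10 kb (18.9% of all protein-coding genes) and 71 within 50 kb (57.8% of all), and 7 a passing one within 10 kb (2.55% of all). By role, and measured from the gene span again, a member of any IDR lay within 10 kb of 13 of 17 TEAD and YAP pathway genes. The same held for 13 of 19 TGF-beta and BMP genes, 11 of 16 mesenchymal genes and 10 of 20 matrix and collagen genes. It also held for 8 of 16 AP-1 subunits, 7 of 15 osteoblast genes, 6 of 16 hepatic and endoderm genes and 5 of 16 neural and pluripotency genes. Among signalling ligands, TGFB2 held the strongest member of the lists at chr1:218380243-218381038, 34907 bp from its start site (inputs 21.9 and 20.4, called in 4 FOXA2-set lists), and INHBA, an activin subunit, held one of 7.03. Of their receptors and effectors, TGFBR3, the betaglycan coreceptor, held one of 14.7, and SMAD3, a signal transducer, held 3 passing members of 7.80 to 8.99. Matrix genes with passing members were FN1 (fibronectin, 12.8), COL5A2 (11.2), COL5A1 (8.48), COL3A1 (7.27) and TIMP3, a protease inhibitor (6.27). Members near Hippo pathway genes were at LATS2, a kinase that restrains YAP (11.2), AJUBA (8.82) and AXL, a receptor kinase (7.70). CDH2 and TWIST2 of the mesenchymal list, NANOG of the pluripotency list and TTR of the hepatic list had −log10 p of 6.52, 6.15, 7.02 and 7.27.

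The labelled cell type was checked at start sites. The 4 mesenchymal markers with a start site in the table (RUNX2, SPARC, VIM, FN1) were called in the SOX2-set wild type and in 6 to 9 of the 9 lists. In the FOXA2-set wild types SPARC was called in both, RUNX2 and VIM in replicate 1 only and FN1 in neither. Of the 3 markers of other cell types, the leukocyte gene PTPRC and the hepatocyte gene ALB were called in 0 lists. The keratinocyte gene KRT5 was called in 4, which were full-length FOXA2 replicate 1 and all lists of the SOX2 set, its wild type included. None of these 7 start sites had a member within 1 kb. The check covered only part of the planned markers. COL1A1, COL1A2, CDH11 and TWIST1 had no start site in the table. Nor did CD3E, CDH5, PECAM1, EPCAM and CDH1 of the other cell types.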

How the data were processed

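ATAC-seq peak lists of U2OS cells on hg38 were used, with no reads, so read depth is unknown. Per the submitters' processing notes, FastQC 0.10.1, Trim Galore, Bowtie2 2.4.4, SAMtools 0.1.18, MACS2 and deepTools 2.4.1 were used, in roles not given there. The authors deposited 6 MACS2-style lists (1 per FOXA2-set sample), with −log10 p and fold enrichment, a ratio over the library's own background, and 3 IDR-style lists (1 per SOX2-set group), in which the deposited −log10 p is the lower of 2 inputs. The deposited score restates significance and was not used. That the 2 inputs were both samples of a group is taken from the layout. IDR was limited to 0.05 where stated.

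Members, gene lists and motifs were chosen with earlier results of these data known. Named regions are the strongest by −log10 p among members passing IDR: the first 8, the first 8 within 1 kb of a start site, 6 called in all FOXA2-set lists and 6 in none, with genes of the lists within 10 kb. The planned windows at entry centres could not be made without a genome, so RefSeq promoters (GRCh38.p14) were used, and start sites cover 79.2% of coding genes, with none on chromosome 8. Start sites cover only 74.1% of the listed genes, so the list check by start site is void and gene spans were used. Tests were exact permutations in Python 3.11.15 (scipy 1.17.1), tested on simulated data. Each sample is a library labelled a biological replicate. No column of per-sample values was left unmapped. Wilson intervals are at 95%.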

Additional observations from a re-analysis of the deposited data

How the results depend on the processing

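The count of lost regions was 25810 when only the 3 SOX2-set lists were merged and 20767 with no construct entry within 1 kb, but 55720 when construct entries had to pass IDR and 38591 at equal numbers of entries. The count passing IDR was 12344 with construct entries limited to IDR 0.05 and 1144 at IDR 0.01. The mean share called in FOXA2-set libraries, 6.08%, was 1.86% at the common −log10 p threshold, 1.00% at equal numbers of peaks and 10.6% for entries passing IDR. Leaving out each library gave 4.48% to 7.05%. The difference from kept regions ranged from −36.6 to −12.9 points over the alternatives with 6 libraries, and from −30.8 to −25.7 when each library was left out, where the exact permutation p of 0.0625 is the smallest that 5 libraries allow. Constructs minus wild type was −0.409 points at equal numbers of peaks, and in the top class −9.93 at the common threshold and −13.0 at equal numbers, alternatives chosen after seeing the data. The cause was not tested. With the replicate number as a block it was 6.82 points (exact permutation p = 0.222), and the labels tie equal numbers to no shared day or batch. The start-site share was 3.68% at 2 kb, 6.91% at 5 kb and 1.54% for entries passing IDR. The number of listed genes with a member within 10 kb of a start site, 38 of 100, was 71 at 50 kb, 7 for members passing IDR and 73 of 135 by gene span. The 400-base motif window was not run. Depth is unknown, so a missing entry shows no call, not closed chromatin.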
